A study of Homo sapiens with 6 samples.

Results

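Alternative 5′ splice site (A5SS) events whose 2 donor sites lie more than 50 nt apart were examined in NCI-H1975 cells. An event was taken when the longer form of the exon exceeded the shorter form by more than 50 nt and when its junction reads reached a mean of at least 10 over the 6 libraries. Of 78336 events listed in 5 tables of alternative splicing, 3727 were A5SS events. The distance was above 50 nt in 2134 of these, and 1747 of them, in 1334 genes, also had enough reads. The other 387 had fewer reads. In all, 3010 A5SS events had enough reads, and the 1263 that lie 50 nt apart or less serve as the comparison below.

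NCI-H1975 is an established human lung adenocarcinoma (LUAD) cell line. The control cells received the empty pcDNA3.1 plasmid and the SAM68 cells received pcDNA3.1-SAM68, both at 2 µg per well with lipofectamine 2000 for 48 h. RNA was sequenced in 3 libraries per group, as part of the study's work on how SAM68 affects tumorigenesis in lung cancer. The cells were transfected as a bulk culture, so the values average cells that took up the plasmid with cells that did not.

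A 5′ splice site, or donor, marks the boundary between an exon and the intron that follows it. The U1 snRNP recognises it by base pairing over the last bases of the exon and the first bases of the intron, nearly always with GT at the start of the intron. When an exon has more than 1 donor, the choice of the upstream site gives the shorter exon and the choice of the downstream site adds the stretch in between to the mRNA. SAM68, encoded by KHDRBS1, is a STAR family RNA-binding protein that binds A/U-rich motifs and is known for acting on splice site choice.

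The sites of 4 members are shown first, since these pairs cover the main situations described below. Each window is 20 bases long on GRCh38 and runs 5′ to 3′ on the strand of the gene, with the first 2 bases of the intron in capitals. NOP56, a core protein of box C/D snoRNPs, used both sites about equally (upstream site chr20:2656027-2656046, downstream site chr20:2656207-2656226, plus strand). MTCH1, a mitochondrial outer membrane protein, used its upstream site in most transcripts (chr6:36972691-36972710 and chr6:36972640-36972659, minus strand). MYL6, a myosin light chain, used almost only its downstream site (chr12:56159615-56159634 and chr12:56159723-56159742, plus strand). EIF4G2, a translation initiation factor, has an intron and a further exon inside the stretch (chr11:10802037-10802056 and chr11:10801649-10801668, minus strand).
NOP56 upstream site: ctgttcagGTaccagtgagg
NOP56 downstream site: gtttccagGTcagcgacatt
MTCH1 upstream site: atgacagcGTgagtgacacc
MTCH1 downstream site: gttcccagGTtggttggaac
MYL6 upstream site: ccgaacagGTgatggcaaga
MYL6 downstream site: gagtgatgGTgaggggccta
EIF4G2 upstream site: aaagccagGTaagtaatatt
EIF4G2 downstream site: cagatgagGTacatttgcct

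Among the members, the intron began with GT at 1700 upstream and 1701 downstream sites and with GC at 47 upstream and 42 downstream sites. At the downstream site, another 2 members had GG and 2 had AT. The strength of a site was scored as the summed log2 odds of its last 3 exon and first 6 intron bases against a matrix from 26317 GT donor sites of exons in genes without a member. Those sites had a median score of 8.32, with quartiles of 6.54 and 9.91. The upstream site of EIF4G2 reached 13.0, the highest score the matrix can give, and its downstream site 5.56. The scores were 4.70 and 6.67 for NOP56, 4.40 and 5.72 for MTCH1, and 7.18 and 7.97 for MYL6. Thus 3 of these 4 pairs had the stronger site downstream, although MTCH1 mostly used the other.

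The level of an event is given as percent spliced in (PSI), here the share of transcripts that use the downstream site. It was computed from reads that cross exon boundaries, each form divided by its effective length. In all 1747 members the effective length of the longer form was that of a form counted by reads that run from the exon into the stretch as well as by reads across the downstream junction. A transcript whose intron is not yet removed therefore counts towards the downstream site. The members held 1008439, 1086943 and 1057357 such reads in control and 1112215, 966552 and 948682 in SAM68 libraries, with a median of 99 reads per member. The precision of PSI thus differs widely among members.

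The reads of the overexpressed gene come first. Scaled to 1e6 skipped-exon junction reads, KHDRBS1 had 99.6, 105 and 101.4 reads in control and 395, 405 and 409 in SAM68 libraries at its skipped-exon event with most reads. All SAM68 libraries lay above all control libraries. The means were 102 ± 2.76 and 403 ± 7.16 (SD, n = 3), a ratio of 3.95 (p = 0.1 by an exact permutation test, which is as low as 3 against 3 libraries can reach). Of the markers looked up for cell types, the epithelial keratins KRT8 and KRT18 had skipped-exon events, while KRT19, EPCAM, CDH1 and EGFR had none listed. KRT18 had a mean of 154 ± 3.57 scaled reads in control and 168 ± 1.37 in SAM68 libraries (SD, n = 3). KRT8 had 166 scaled reads in the first control library against 73.6 to 80.9 in the other 5. The mesenchymal markers looked up (COL1A1, COL1A2, COL3A1 and PDGFRB) and the endothelial ones had no skipped-exon event listed. Vimentin, which is also used as a mesenchymal marker, has members described below. Of the immune markers CD68 alone had a skipped-exon event, with 29.4 to 33.3 scaled reads. A gene without a listed event can still be expressed, so these markers are a partial check of the label.

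The members fell into 2 kinds that the distance does not separate. In 585 members GENCODE annotates an intron that starts at the upstream site and ends inside the stretch. In 530 the same 3 exon ends also appear as a skipped-exon event of the series, and 587 members (33.6%) met at least 1 of these conditions. In these, called members with an inner exon here, the longer form holds an upstream exon, an intron and a further exon, and the downstream site is the donor of that further exon. The remaining 1160 members (66.4%), called plain here, have no annotated intron that starts at their upstream site and ends in the stretch. Most can be read as extensions of an exon, but some, as in AP4M1, share the downstream site with a member that has an inner exon. The stretch had a median of 111 nt in the plain members (quartiles 75 and 171) and 367 nt in those with an inner exon (quartiles 224 and 762.5).

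The level of both kinds differed accordingly. The median control PSI was 51.9% in plain members, with quartiles of 2.35% and 96.2%, and 98.4% in members with an inner exon, with quartiles of 89.7% and 99.9%. Over all members it was 87.8%. The events 50 nt apart or less had a median of 49.2%, with quartiles of 2.80% and 96.2%. In 383 of the 587 members with an inner exon (65.2%), control PSI was above 95%, against 325 of 1160 plain members (28.0%) and 352 of 1263 nearer events (27.9%). A count of all members therefore mixes plain donor choice with exon skipping read from a different table.

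For the 530 members shared with the skipped-exon table, the reads across the upstream junction were the same numbers in all 6 libraries. The control levels in both tables lay within 5 percentage points of each other in 471 of them and over 20 points apart in 7. Across these events the Spearman correlation was 0.987, a description only, since both levels share the junction reads and many events share genes. The further exon had a median length of 108 nt, and its median share of the stretch was 31.6%. Vimentin, the intermediate filament VIM, is such a case. Its stretch of 490 nt holds a whole exon, and its mean control level was 99.9% in the A5SS table and 99.97% in the skipped-exon table.

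**Figure D1:**
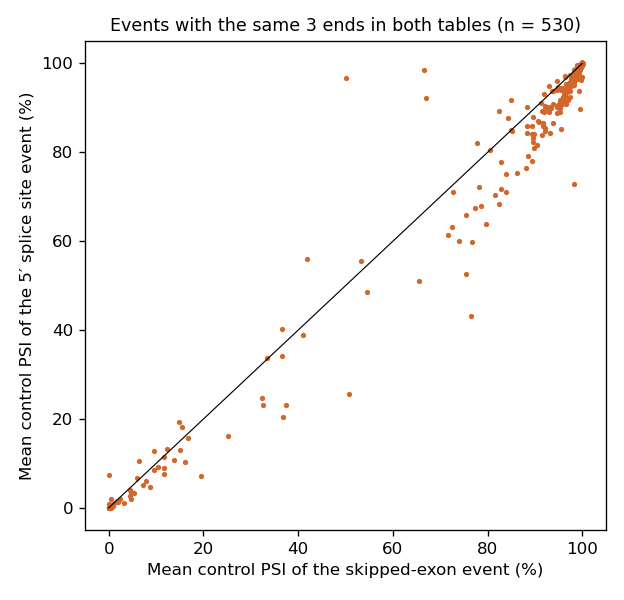
Mean control PSI of the 530 shared events, as listed among skipped exons (x axis, percent) and among A5SS events (y axis, percent). Each point is an event and the line marks equal levels, and 471 points lie within 5 percentage points of it.

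Annotation separated the plain members further. The canonical GENCODE transcript used the upstream site in 494 and the downstream site in 513 of them, and neither in 153. Where it used the upstream site, the median control PSI was 1.68% (quartiles 0.381% and 7.75%). Where it used the downstream site, the median was 96.3% (quartiles 85.3% and 99.1%). Members with neither site in the canonical transcript had a median of 76.7%, with wide quartiles of 22.7% and 93.2%. The nearer events gave much the same values, 2.14% and 95.9% for the upstream and downstream canonical sites. Most plain members thus used the annotated main site in nearly all transcripts, and only 185 of 1160 (15.9%) had a control PSI between 20% and 80%.

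The junction from the upstream site to the following exon was not annotated in 405 members, of which 324 had an inner exon. Their median control PSI was 99.4%. The downstream junction was not annotated in 70 members, whose median control PSI was 12.1%. In either case the junction absent from the annotation was the less used one in most members.

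Site strength went with use in the plain members, though loosely. The downstream site had the higher score in 597 plain members, and 371 of these (62.1%) had a control PSI above 50%. The upstream site had the higher or equal score in 563, and 350 of these (62.2%) had a PSI below 50%. The Spearman correlation between the score difference and control PSI was 0.278 over 1160 plain members and 0.433 over 1263 nearer events. These are correlations across events of the same libraries, which are not independent, and the difference between them was not tested. In members with an inner exon, where the sites belong to separate exons, it was 0.0544 over 587 events.

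**Figure D2:**
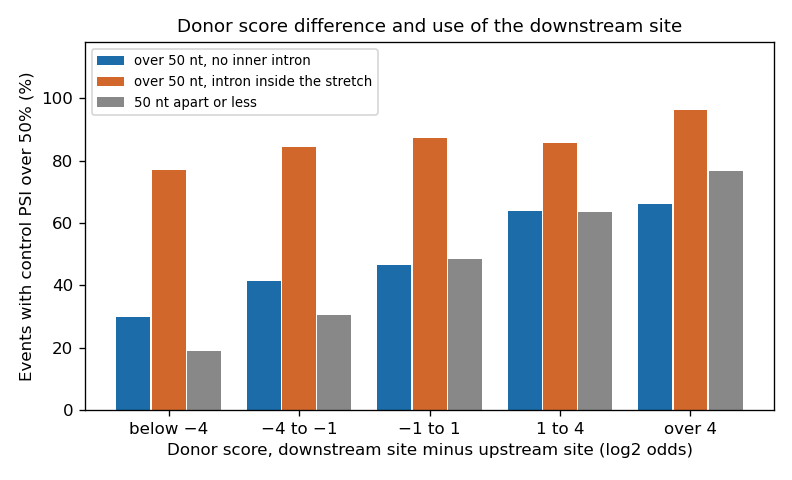
Share of events with a control PSI above 50% (y axis, percent) by the donor score of the downstream site minus that of the upstream site (x axis, log2 odds). The share runs from 30.0% to 66.1% in plain members, from 18.8% to 76.6% in events 50 nt apart or less, and from 77.0% to 96.4% in members with an inner exon.

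Most plain members lie in the reading frame of a protein. The canonical site was coding in 868 (74.8%), lay in the 5′ UTR in 114 (9.83%) and belonged to a noncoding transcript in 19. Intermediate use was more frequent in the 5′ UTR, where 40 of 114 members (35.1%) had a control PSI between 20% and 80%, than in coding positions with 92 of 868 (10.6%). The shares at an unadjusted p under 0.05 between SAM68 and control were 5.26% and 7.37%, beside 7.16% of all plain members.

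A stretch within a reading frame can add codons, shift the frame or bring a stop codon. Of 417 plain coding members with a canonical upstream site, 157 (37.7%) had a stretch of whole codons, and 303 (72.7%) met a stop codon in frame inside the stretch. Among 519 nearer coding events of the same kind, 136 (26.2%) met a stop. These stretches are shorter by the rule and have fewer codons in which a stop can lie. With a canonical upstream site, coding or not, the median stretch was 119 nt in plain members and 16 nt in nearer events. The median control PSI was 1.08% for the 303 members with a stop and 2.45% for the 50 members with whole codons and no stop. The downstream form exceeded 20% in 22 (7.26%) and 4 (8.0%) of these. Among the 451 plain coding members with a canonical downstream site, where the upstream site removes the stretch, 221 (49.0%) lost whole codons.

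NOP56 is the exception with most reads among those with a stop. Its stretch of 180 nt, at chr20:2656035-2656214 on the plus strand of GRCh38, follows exon 8 of the canonical transcript and meets a stop codon at base 8. It also contains SNORD86, a box C/D snoRNA gene of the same strand. The stretches of QARS (chr3:49103556-49103630, minus strand, after exon 4) and of KHDRBS1 itself (chr1:32038037-32038119, plus strand, after exon 6) are given beside it, with the first stop codon in frame in capitals. QARS encodes glutaminyl-tRNA synthetase. All 3 stretches are intron in the canonical transcript.
NOP56 stretch: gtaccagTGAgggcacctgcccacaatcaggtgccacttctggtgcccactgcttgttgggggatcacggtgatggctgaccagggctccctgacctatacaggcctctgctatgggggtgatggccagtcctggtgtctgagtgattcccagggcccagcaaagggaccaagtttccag
QARS stretch: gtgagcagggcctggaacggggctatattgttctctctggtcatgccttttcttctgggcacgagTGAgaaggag
KHDRBS1 stretch: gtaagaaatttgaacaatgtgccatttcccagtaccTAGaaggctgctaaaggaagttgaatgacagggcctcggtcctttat

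Small RNA genes lay inside the stretch in 14 members of 7 genes, all snoRNAs except in DDX5, whose stretch holds MIR3064 and MIR5047. Among them 3 were plain members, NOP56 and 2 of RPL13A with SNORD32A. The RPL13A member with most reads among the latter had a control PSI of 0.0114% ± 0.00817 (SD, n = 3), so a snoRNA gene in the stretch stood beside very different levels.

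The motifs UAAA and UUAA, which resemble those SAM68 is known to bind, were counted on the RNA strand in the stretch, overlapping matches included. At least 1 was present in 449 of 1160 plain members (38.7%). In windows of the same length directly after the downstream site the share was 53.5%. The members with an inner exon had 57.8% and 66.3%, in stretches with a median of 367 nt against 111 nt in plain members. Plain members had 7.33 matches per kb of stretch and 11.3 in the windows after it. Those with an inner exon had 8.45 and 9.53. The GC content of the stretch in plain members had a median of 54.3%, against 49.6% in the windows after it. Among the members whose groups did not overlap, the motif was present in 36 of 58 with higher and 23 of 55 with lower PSI in SAM68 libraries, and in 788 of all 1747 (45.1%). Per kb the stretches held 8.88 matches in the higher and 12.5 in the lower group, the opposite order, beside 8.03 over all members. The windows after the downstream site had a match in 33 of 58 and 35 of 55, and in 1010 of all 1747 (57.8%). A match is only a run of letters and no binding was measured.

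Between SAM68 and control libraries the median PSI over the members changed little. Each library's median PSI over the members was 89.1%, 87.3% and 88.2% in control and 88.2%, 88.3% and 88.5% in SAM68 libraries. These ranges overlap. In members with a mean of at least 50 reads, the median absolute difference in PSI between a control and a SAM68 library was 0.885 to 1.08 percentage points over the pairs of libraries. Between libraries of the same group it was 0.938 to 1.07 points for control and 0.892 to 0.920 for SAM68. The difference of the group means (∆PSI, SAM68 minus control) was above 0 in 852 members and below 0 in 893, with a median of -0.0185 points, beside -0.00156 over all 3010 events.

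No member was called. The quasi-binomial test, with dispersions moderated by limma and Benjamini-Hochberg adjustment over all 3010 A5SS events, gave 0 of 1747 members and 0% of all events as differing by at least 10 points of ∆PSI with an adjusted p under 0.05. The smallest adjusted p of a member was 0.236. At an unadjusted p under 0.05 there were 125 members (7.16%), 61 with higher and 64 with lower PSI in SAM68 libraries, beside 7.51% of all tested events. limma on the logit of PSI called 0 as well, with 78 members at an unadjusted p under 0.05. A test on the pooled reads of each group, which takes no account of the spread between libraries, called 37 members (2.12%), 19 higher and 18 lower, beside 2.76% of all tested events.

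The libraries of both groups did not overlap in 58 members with higher and 55 with lower PSI in SAM68 libraries. The share of all tested events was 3.49% higher and 3.69% lower, and that of the members was 3.32% and 3.15%. Plain members and those with an inner exon each had 7.16% of events at an unadjusted p under 0.05. The ∆PSI reached 10 points in 145 members (8.3%), beside 9.14% of all tested events. The groups of 34 of these (1.95%) did not overlap, beside 2.43% of all tested events.

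**Figure D3:**
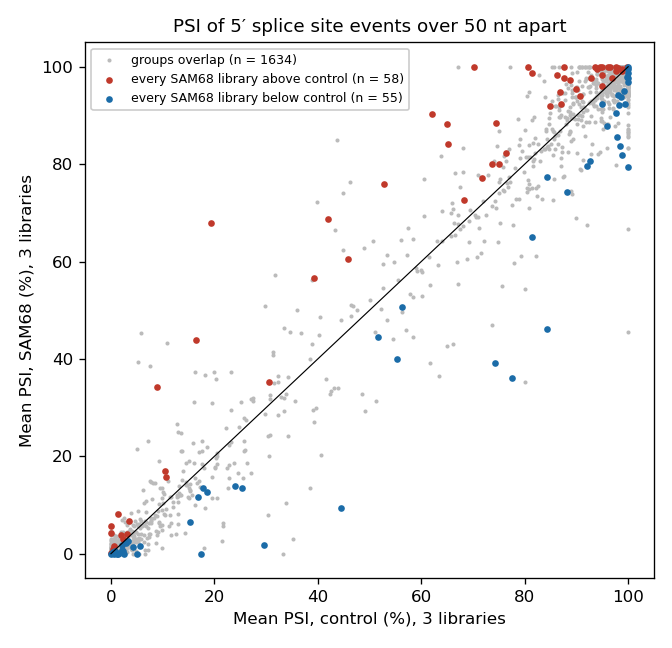
Mean PSI of each of the 1747 members in SAM68 (y axis, percent) against control libraries (x axis, percent), with the line of equal levels. The 58 members with every SAM68 library higher are red, the 55 with every one lower are blue, and the others are grey.

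The 12 members described next had the smallest unadjusted p among members not called, with a mean of at least 50 reads and groups that do not overlap, 1 per gene. Each has an exact permutation p of 0.1, the smallest the design allows, and an adjusted p of 0.513 in the quasi-binomial test moderated by limma. The separation of their groups, and with it the exact permutation p, is a consequence of how they were chosen.

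NOP56 had the most even use of both sites. Its PSI was 47.5%, 56.4% and 50.7% in control and 43.4%, 46.7% and 43.2% in SAM68 libraries. The groups did not overlap, though the first control and second SAM68 library lay close. The means were 51.5% ± 4.53 and 44.4% ± 1.96 (SD, n = 3), a ∆PSI of -7.11 points from 787 to 960 reads per library, at an unadjusted p of 0.004755. Leaving out the second control library brought the ∆PSI to -4.67 points.

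QARS, PPIH and PSMA7, plain members at coding positions, had low PSI throughout. QARS had 1.76%, 2.99% and 2.01% in control and 0.576%, 0.686% and 0.384% in SAM68 libraries, a ∆PSI of -1.70 points. The intron from the upstream site of QARS was also listed as retained, at 3.10% in control and 1.22% in SAM68 libraries. How far unspliced reads enter the ∆PSI of QARS was not tested. PPIH, a cyclophilin of the U4/U6.U5 tri-snRNP, had 2.65%, 1.98% and 1.71% against 1.05%, 0.703% and 0.648%, a ∆PSI of -1.31 points. PSMA7, an alpha subunit of the proteasome, had 0.295%, 0.529% and 0.166% against 0.803%, 0.989% and 1.06%, a ∆PSI of 0.622 points. In all of them the downstream form was carried by 2 to 23 reads per library.

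FBXW2, an F-box protein of ubiquitin ligases, and STAT2, a transducer of interferon signals, also had the downstream site as the rarer form. FBXW2 had 1.12%, 1.41% and 1.35% in control and 5.88%, 10.9% and 7.46% in SAM68 libraries, from 2 to 3 and 8 to 15 reads of the longer form. Its ∆PSI was 6.80 points at an unadjusted p of 0.000669, and 12.4 points without length normalization. STAT2 had 0 reads of the longer form in each control library and 2, 4 and 3 in the SAM68 libraries, a ∆PSI of 4.20 points.

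In ALKBH6, TRIO and GSS the upstream site was the rarer form. ALKBH6 had 8, 1 and 6 reads of the upstream junction in control and 0 in each SAM68 library, beside 165 to 274 reads of the longer form. TRIO had 3, 4 and 2 against 0 in each. GSS, glutathione synthetase, had 0 in each control library and 1, 5 and 5 in the SAM68 libraries. ALKBH6 and GSS have an inner exon, so the upstream junction skips it.

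SGCE and RNASEK-C17orf49 had larger differences. SGCE, epsilon-sarcoglycan, had a PSI of 91.8%, 99.2% and 96.7% in control and 88.0%, 89.0% and 86.2% in SAM68 libraries, a ∆PSI of -8.14 points. It has an inner exon, and its level among skipped exons was 97.8% in control and 93.4% in SAM68 libraries. RNASEK-C17orf49, a readthrough of neighbouring genes whose reads it shares, had 68.3%, 66.2% and 60.8% against 72.7%, 97.2% and 82.7%, a ∆PSI of 19.0 points with an SD of 12.3 in SAM68 libraries. The intron from its upstream site, also listed among retained introns, had a retained level of 26.6% in control and 54.6% in SAM68 libraries. The intron from its downstream site had 9.04% in control and 8.22% in SAM68 libraries. The level from the upstream site also counts reads into the stretch from transcripts that use the downstream site. How far unspliced reads enter its ∆PSI was not tested.

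USP8, a deubiquitinase of endosomal receptors with an inner exon in its 5′ UTR, had the largest ∆PSI of the 12. Its PSI was 21.9%, 19.4% and 16.9% in control and 70.2%, 33.3% and 100% in SAM68 libraries. The upstream junction had 41, 54 and 59 reads in control and 7, 29 and 0 in SAM68 libraries, while the longer form had 23 to 33 reads in all 6. The ∆PSI was 48.4 points at an unadjusted p of 0.000898. Without the second SAM68 library it was 65.7 points and was called, at an adjusted p of 0.0132 by the quasi-binomial test moderated by limma. Without the third SAM68 library it was 32.4 points, and on pooled reads 36.7 points.

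**Figure D4:**
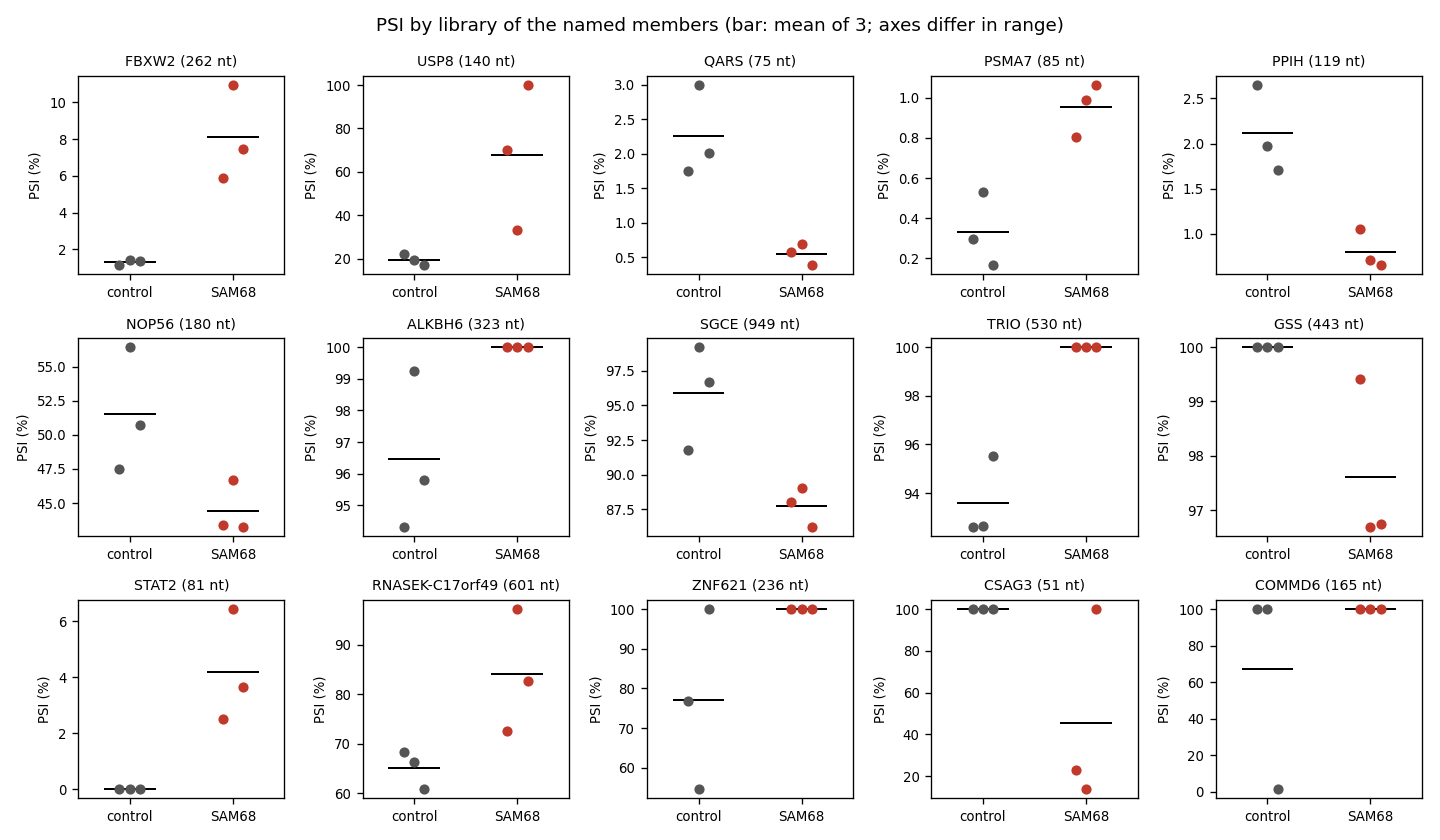
PSI by library (y axes, percent, with their own range in each panel) of the 12 members and of ZNF621, CSAG3 and COMMD6, in control and SAM68 libraries (x axis). Points are libraries and bars are means of 3, and CSAG3 and COMMD6 each have a group with libraries near opposite ends of the scale.

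A further 2 members were named after their values were seen, since a library of theirs stands far from the others of its group. CSAG3, a cancer/testis gene with a near-identical copy on the X chromosome, had the smallest unadjusted p of all members, 7.8e-05. Its PSI was 100% in each control library and 22.9%, 13.7% and 100% in SAM68 libraries, where the upstream junction had 68, 41 and 0 reads. Without the third SAM68 library the ∆PSI was -81.7 points and the member was called, at an adjusted p of 9.39e-05 by the same test. COMMD6, a subunit of the Commander complex, had 258 reads of the upstream junction in the third control library and 0 in the other 5. Its ∆PSI of 32.9 points went to 0 without that library.

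Such on and off patterns were not rare. In 109 members (6.24%), a form had 0 reads in 1 library and at least 10 in another library of the same group, beside 81 of 1263 nearer events (6.41%). Without them the number of members at an unadjusted p under 0.05 was 138.

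The ZNF621 event that the study lists is a member, with a stretch of 236 nt in its first exon. The study also picked this gene to check its sequencing, using RT-PCR on the first exon. It states that SAM68 regulates the splicing of ZNF621. That RT-PCR is separate evidence, which the values below do not include. This zinc finger gene had a PSI of 76.7%, 54.5% and 100% in control and 100% in each SAM68 library. The upstream junction had 5, 10 and 0 reads in control and 0 in each SAM68 library, so the groups meet at the third control library. The means were 77.1% ± 22.7 and 100% ± 0 (SD, n = 3), a ∆PSI of 22.9 points with an exact permutation p of 0.4. The quasi-binomial test moderated by limma gave an unadjusted p of 0.00514 and an adjusted p of 0.513. The test on pooled reads, which takes no account of the spread between libraries, called this member at an adjusted p of 0.000581. Without the second control library the ∆PSI was 11.6 points.

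Genes of splice site recognition and splicing regulation are themselves alternatively spliced. In the list of U1 snRNP and its helpers, 5 members of 4 genes had a median control PSI of 95.1%, and 1 lay between 20% and 80%. Among these 5, 0 had an unadjusted p under 0.05, beside 7.16% of all members, and so few members say little about the list. The most read member of SNRPA, a protein of the U1 snRNP, had 97.5% to 98.8% in control and 97.3% to 100% in SAM68 libraries. TIA1, which helps U1 to bind weak donors, has weak sites of its own in this event, with scores of 3.70 and 2.46. Its PSI was 18.5%, 14.5% and 17.6% in control and 12.4%, 10% and 12.8% in SAM68 libraries, without overlap, from 55 to 97 reads and with an unadjusted p of 0.127.

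Among hnRNP, SR and other regulators, 26 members of 19 genes had a median control PSI of 99.02% and a median ∆PSI of 0.0177 points, and 17 had an inner exon. One member, in HNRNPH3, had an unadjusted p under 0.05, beside 7.16% of all members. HNRNPA1 had 99.95% ± 0.0169 in control and 99.92% ± 0.0214 in SAM68 libraries, and DDX5, an RNA helicase, had 98.6% ± 1.10 and 99.3% ± 0.0647 (SD, n = 3). The member in KHDRBS1 had 699, 785 and 729 reads of the upstream junction in control and 2560, 2509 and 2283 in SAM68 libraries. The downstream form, with the stretch printed above, had 0 to 6 reads in every library. A plasmid transcript without introns cannot carry the stretch, so these counts say nothing about site choice in the added transcripts.

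In glycolysis and mitochondrial energy metabolism, 40 members of 31 genes had a median control PSI of 34.9% and a median ∆PSI of -0.00187 points. One had an unadjusted p under 0.05, beside 7.16% of all members. This was GAPDH, in which the longer form had 8, 4 and 7 reads in control and 1, 3 and 0 in SAM68 libraries beside 25328 to 33458 reads of the upstream junction. ATP5MG, a subunit of ATP synthase, had 99.3% or more in every library. The most read PKM member, which extends a first exon by 216 nt, had 0.210% ± 0.0142 in control and 0.184% ± 0.0509 in SAM68 libraries (SD, n = 3), and its downstream form had 12 to 26 reads per library.

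The 30 members of ZNF genes had a median control PSI of 65.0% and 10 of them lay between 20% and 80%, beside 227 of all 1747. Their median ∆PSI was 1.10 points, with 17 above 0 and 13 below, and 3 (ZNF302, ZNF410 and ZNF621) had an unadjusted p under 0.05, all with higher PSI in SAM68 libraries, beside 7.16% of all members. The median PSI of the list in SAM68 libraries was 58.0%. ZNF410 had 94.4%, 91.1% and 92.7% in control and 100%, 97.2% and 95.8% in SAM68 libraries, without overlap. ZNF740 had 2.15% to 5.93% and 4.31% to 9.52%, and its groups overlapped. ZNF227 had 0.929% to 3.61% in control and 0% to 1.70% in SAM68 libraries, also with overlap.

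In the ubiquitin system, 65 members of 48 genes had a median control PSI of 88.2% and a median ∆PSI of -0.0615 points. Of these, 5 had higher and 1 had lower PSI in SAM68 libraries at an unadjusted p under 0.05, beside 7.16% of all members. USP8, FBXW2, PSMA7 and COMMD6 described above are among them, and COMMD6 rests on 1 library. PSMA6 and PSMC3, further proteasome subunits, had at least 97.8% in every library. Among cell cycle and apoptosis genes, 23 members of 17 genes had a median of 95.4%, and 2 (CCNL1 and MDM2) had an unadjusted p under 0.05, beside 7.16% of all members. The ∆PSI was above 0 in 7 and below 0 in 16, with a median of -0.351 points. The most read members of CCNG1 and AURKB had 98.4% or more and 93.6% or more in every library. The other AURKB member had 98.0%, 100% and 98.0% in control and 93.8%, 98.8% and 90.1% in SAM68 libraries, with overlap. Of the adhesion and cytoskeleton genes, 10 members of 7 genes had a median of 96.2%, and 1 with higher (MYL6) and 1 with lower PSI (VIM) in SAM68 libraries had an unadjusted p under 0.05, beside the same 7.16%. This MYL6 member had 95.03%, 94.4% and 95.7% in control and 96.2%, 96.4% and 95.9% in SAM68 libraries, without overlap. This VIM member had 100% in all libraries but the second SAM68 library, with 99.8%. The most read MYL6 member had 97.6% to 97.9% in control and 97.8% to 98.1% in SAM68 libraries, and CD44, a hyaluronan receptor, had 96.4% to 99.1%.

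Long noncoding genes, some of which host snoRNAs in their introns, are spliced without a reading frame to keep. The list, which does not hold every snoRNA host, had 18 members of 9 genes, with a median control PSI of 94.3%, 3 between 20% and 80% and 13 with an inner exon, and 2 (GAS5 and SNHG15) at an unadjusted p under 0.05, beside 7.16% of all members. The most read SNHG5 member had 92.5% ± 1.05 in control and 92.7% ± 0.280 in SAM68 libraries (SD, n = 3). GAS5 was the gene with most members, 9, whose control PSI ran from 76.5% to 100%.

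Members with a control PSI of 20% to 80% make both forms in the same culture, and the 8 most read of these follow. LRRC75A-AS1, a snoRNA host, had 24.5%, 23.7% and 26.2% in control and 26.1%, 24.99% and 26.8% in SAM68 libraries. C6orf48, also a snoRNA host, had 78.2% ± 2.26 and 79.3% ± 1.98, and a GAS5 member 76.5% ± 1.84 and 76.1% ± 1.10 (SD, n = 3). C12orf57 had 77.0% ± 2.99 and 77.3% ± 1.61, and RPL35A, a ribosomal protein gene with the event in its 5′ UTR, 72.5% ± 3.69 and 69.5% ± 1.27 (SD, n = 3). In each of these 5 the group means differed by less than the larger of the group SDs.

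In the other 3 the groups did not overlap, beside 3.49% of all tested events with higher and 3.69% with lower PSI in SAM68 libraries. MTCH1 had 29.9%, 32.5% and 29.5% in control and 33.4%, 39.0% and 33.7% in SAM68 libraries, a ∆PSI of 4.73 points at an unadjusted p of 0.0116. Its stretch of 51 nt is made of whole codons that the canonical transcript includes, so the annotated main form was the less used one here. EIF4G2 had 67.5%, 67.6% and 69.9% against 74.7%, 73.3% and 70.0%, a ∆PSI of 4.28 points at an unadjusted p of 0.0315. It has an inner exon, and its level among skipped exons was 82.5% in control and 84.4% in SAM68 libraries. NOP56 is the third.

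At the limits of the rule, 19 members had a stretch of 51 nt and 15 events left out had 50 nt. RPS16 and MTCH1 were the most read at 51 nt, RPS16 with 96.6% to 96.8% in control and 96.4% to 96.7% in SAM68 libraries. SUMO3 and GORASP2 were the most read at 50 nt, with mean control levels of 0.202% and 95.4%. The members PAX6 and APTX stood at the limit of 10 reads, where PSI of APTX ran from 0% to 49.8% among control libraries. ZNF552, TRAPPC4 and BTN2A2 events fell just below it with a mean of 9.83 reads.

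The introns of some members were also listed in the retained intron table. The intron from the upstream site was listed there for 154 members, 99 of them plain, with the same spliced reads in all 6 libraries for all 154. The median retained level of these introns was 27.3% in the plain members. This level also counts reads into the stretch from transcripts that use the downstream site, so it is not a level of unspliced RNA alone. The intron from the downstream site was listed for 159 members, with a median retained level of 1.10% over all of them, plain or with an inner exon. For MYL6 the intron from the upstream site had a level of 94.1% in control libraries, and that from the downstream site had 0.0222%. The longer form at this exon reached 97.7% in control libraries. How much of the 94.1% comes from transcripts that use the downstream site was not tested.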

How the data were processed

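RNA of 3 control and 3 SAM68 libraries was measured. Per the labels and the study's methods, the authors cleaned the reads (CASAVA 1.4 and fastp 0.20.0), aligned them with HISAT2 2.1.0 to GRCh38 and listed events with rMATS, whose version is not given in the sources used here. The deposited tables hold raw counts, made by the authors, of junction reads for each form, their inclusion levels and effective lengths, with 3 values per group in a list. The first list was taken as control, since the study heads the comparison with its control group. KHDRBS1 reads were known from earlier results by then, so their ratio is no independent check of this assignment. Libraries are named by their place in a list. The columns of the authors' own comparison (p-value, FDR and difference of inclusion levels) were not used. All listed A5SS levels were recomputed from the counts within 0.0005. Among alternative 3′ splice sites, 275 events had lists regrouped by a spreadsheet, and these were left out.

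PSI was the count of the longer form over its effective length, divided by the same sum over both forms, averaged over the libraries of a group with reads. With at least 10 reads on average, an event entered a quasi-binomial model with the group as its term. Pearson dispersions were moderated over all 3010 A5SS events using squeezeVar (limma 3.58.1, R 4.3.3) (prior degrees of freedom 11.6, prior dispersion 1.79) and then not taken below 1, and an F test was applied to the change in deviance. Adjustment followed Benjamini and Hochberg over these 3010 events. A call needed at least 10 percentage points of absolute ∆PSI besides an adjusted p under 0.05. The test was run on simulated counts first. Single members were compared with exact permutation tests, two-sided. The study calls the libraries biological replicates, but nothing in the labels states separate cultures, so p-values measure only the spread between these samples.

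Over the tested A5SS events, each library held 1457913 to 1710931 junction reads. The reads per event, both forms summed, differed by more than sampling noise (chi-square per degree of freedom 2.93 to 3.93 between libraries of a group and 3.96 to 6.35 across groups). This sets the libraries against counting error only, so it cannot show that they are separate cultures. Each library was counted as a replicate. Sites, stretches and motifs were read from the hg38 sequence of GRCh38, and positions, canonical transcripts and small RNA genes from GENCODE 44, with pysam 0.24.0 and Python 3.11.15.

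The named members are those called (0), the 12 not called with the smallest p described in the text, the 8 most read with a control PSI of 20% to 80%, the 3 most read of each of 8 gene lists, the ZNF621 event and those at the limits of the rule. Other genes were named with their values known. The split into plain members and those with an inner exon, and the looks at stop codons, 5′ UTR, retained introns and small RNA genes, were likewise added once the data had been seen. The members and lists were chosen with earlier results of these data known. Alternatives were tried for the dispersion, the test, the limits on reads and ∆PSI, the length normalization, the adjustment and each library left out.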

Additional observations from a re-analysis of the deposited data

How the results depend on the processing

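No member was called with an event's own dispersion, a dispersion trend, limma on the logit of PSI, other limits on ∆PSI, a mean of at least 20 reads, PSI without length normalization or adjustment over all 5 event types. The test on pooled reads called 37 members, and asking for at least 10 reads in every library called 1 (CSAG3). Setting dispersions below 1 to 1 before the moderation, an alternative added after seeing the data that leaves 1 dispersion for all events, called 3 (CSAG3, USP8 and COMMD6). Each of these has a library that stands apart from its group. Leaving out 1 library called 0 to 1 members, USP8 without the second and CSAG3 without the third SAM68 library. The number at an unadjusted p under 0.05 was 63 with own dispersions, 78 with limma and 396 on pooled reads, and 106 to 130 with 1 library left out, against 125. The cause of these differences was not tested. The median control PSI of the members was 92.6% without length normalization and 90.1% with a mean of at least 20 reads, against 87.8%. The KHDRBS1 ratio lay between 3.87 and 4.01 under all alternatives run.

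For 12 of the 15 members followed, the groups do not overlap by the way they were chosen, so leaving out a library or the length normalization cannot turn the sign of ∆PSI, and an unchanged sign shows no stability. That of COMMD6 was 0 without the third control library and 94.0 points on pooled reads (from 32.9). The size moved by over 1.5 times in most members. Without length normalization the ∆PSI was 12.4 points for FBXW2 (from 6.80), -2.44 for PPIH (from -1.31), -2.63 for QARS (from -1.70), 1.02 for PSMA7 (from 0.622) and 6.59 for STAT2 (from 4.20). It was -4.40 for SGCE (from -8.14), 3.32 for TRIO (from 6.41), 1.82 for ALKBH6 (from 3.55), -1.21 for GSS (from -2.38), 12.2 for RNASEK-C17orf49 (from 19.0) and 14.2 for ZNF621 (from 22.9). With 1 library left out, RNASEK-C17orf49 went down to 12.5, NOP56 had -4.67 (from -7.11) and ZNF621 had 11.6 to 34.4 points. No paired analysis was possible because the lists carry no replicate numbers. The smallest detectable difference was not tested, and 0 calls do not show that the groups are alike. Reads carry no molecular identifiers, unspliced reads count towards the downstream site, and members of a gene can share reads.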

Other observations

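Several members belong to ribosomal protein genes, some of whose introns hold snoRNA genes and which are read deeply. RPL13A had 7 members with a control PSI from 0.011% to 100%, and RPS16 had 5 with 96.7% to 99.998%. RPS2 and RPS3A had 4 each, from 0.098% to 99.98% and from 0.003% to 99.9%. Of the 1334 genes, 1058 (79.3%) had a single member. BUD23, TAZ, OCIAD1, PACRGL, RFX5 and VAMP7 had 6 or 7 each. The 6 members of VAMP7, a vesicle SNARE, lay between 82.0% and 94.7%, while those of OCIAD1 ran from 0.974% to 98.7%.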
